A study of Homo sapiens with 8 samples.

Results

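Interferon-stimulated genes are the transcripts that cells raise when they sense interferon or viral nucleic acid. A set of 38 such genes was examined here, chosen by name. All 38 had at least 1 probe on the array, 52 probes in all, among 21524 genes measured. The data are 8 one-color arrays of total RNA from NGP cells, an established human neuroblastoma line. The labels put 4 arrays in a mock group, transduced with a mock construct by lentivirus, and 4 in a group transduced with CFC1 cDNA by the same system. Both groups were selected with puromycin and grown in the same medium with fetal bovine serum, and no array comes from cells without lentivirus. The promoter that drives the cDNA, and whether a group is 1 clone or a pool of transduced cells, are not stated. The labels do not name separate cultures, so each p-value rests on a spread between arrays that may be technical only.

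Each value is read as the log2 of a probe's signal relative to a baseline of that probe, which is not stated. It shows differences between arrays and gives no level of expression. A difference is the mean of the 4 arrays labelled CFC1 minus the mean of the 4 mock arrays, so 1 unit is 2-fold. The transduced gene was checked first. CFC1 encodes a cell-surface co-receptor for Nodal. Its probe read 0.47, 1.10, 0.12 and -0.027 in mock replicates 1 to 4 and 0.055, -0.69, -0.59 and -0.30 in replicates 1 to 4 of the arrays labelled CFC1. CFC1 was thus not higher in the group that carries its name, with a difference of -0.80 (95% interval -1.44 to -0.15) and an adjusted p of 0.0398 in limma. The call of the CFC1 difference was lost under 5 other ways of processing, with adjusted p-values from 0.0546 to 0.0761, and when any of 5 single arrays was left out. Over the 70 ways to arrange the arrays, an exact permutation test (two-sided) gave p = 0.0571, where the smallest possible is 0.0286. Whether the probe lies within the transduced cDNA was not determined. Directions below therefore follow the labels, which CFC1 does not bear out, and the second group is called the arrays labelled CFC1. Over all genes the groups lay far apart: 12456 of 21524 (57.9%) passed an adjusted p of 0.05.

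Type I interferons bind the receptor chains IFNAR1 and IFNAR2 and activate the kinases JAK1 and TYK2. These phosphorylate STAT proteins, and STAT2 together with IRF9 forms the DNA-binding part of the complex ISGF3. ISGF3 recognises the interferon-stimulated response element (ISRE) in the promoters of its targets. Interferon gamma acts through another receptor and a STAT dimer that binds the GAS element. The induced proteins sense viral RNA or DNA, block viral translation and assembly, degrade RNA, or attach the ubiquitin-like protein ISG15 to other proteins. Neuroblastoma cells are known for low expression of MHC class I and its peptide-loading genes.

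The promoters of the members were examined because ISGF3 recognises the ISRE in the promoters of its targets. RefSeq promoter windows of assembly GRCh38.p14, 250 bases before to 50 after a gene's start, were matched for 31 of the 38 members, in 42 windows. Not matched were OASL, TRIM22, USP18, MX2, IFIT2, OAS2 and IRF7. The ISRE was searched on both strands as GAAA followed by 2 bases of any kind and a second GAAA. It was found in 24 of the 42 member windows and at least once in 20 of the 31 members, against 3.57% of all 35116 windows and 4.12% of the 16413 measured genes with a window. The GAS element was searched as TTC and GAA parted by 3 bases of any kind, a pattern that both strands share. It was found in 10 of the 31 members, against 9.1% of measured genes. The motifs can overlap each other and themselves. The stretches below each hold 60 bases upstream of the start, written 5′ to 3′ on the strand of the gene. They were picked to show the element in members that were higher (ISG15, HERC5, BST2, ISG20, IFI44), lower (RSAD2, IFIT1, IFI27) and not called (EPSTI1, SAMD9). Capitals mark the bases matched to the ISRE. GAS matches are not marked, although the stretches of BST2, IFI27 and EPSTI1 each hold 1 that overlaps the ISRE.
ISG15 (chr1:1013359-1013418, + strand): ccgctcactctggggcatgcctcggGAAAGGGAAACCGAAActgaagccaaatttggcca
HERC5 (chr4:88456969-88457028, + strand): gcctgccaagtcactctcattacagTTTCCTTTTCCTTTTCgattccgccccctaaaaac
BST2 (chr19:17405726-17405785, - strand): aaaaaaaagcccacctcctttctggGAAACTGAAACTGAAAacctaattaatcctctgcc
ISG20 (chr15:88638922-88638981, + strand): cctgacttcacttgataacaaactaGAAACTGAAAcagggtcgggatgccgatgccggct
IFI44 (chr1:78649746-78649805, + strand): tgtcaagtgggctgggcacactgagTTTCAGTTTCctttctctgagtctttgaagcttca
RSAD2 (chr2:6877607-6877666, + strand): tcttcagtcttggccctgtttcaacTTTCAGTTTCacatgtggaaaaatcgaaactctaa
IFIT1 (chr10:89392482-89392541, + strand): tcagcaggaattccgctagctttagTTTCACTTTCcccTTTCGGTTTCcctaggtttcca
IFI27 (chr14:94110603-94110662, + strand): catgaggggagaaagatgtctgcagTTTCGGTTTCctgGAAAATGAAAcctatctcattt
EPSTI1 (chr13:42992257-42992316, - strand): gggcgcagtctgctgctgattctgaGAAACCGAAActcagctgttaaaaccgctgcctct
SAMD9 (chr7:93118081-93118140, - strand): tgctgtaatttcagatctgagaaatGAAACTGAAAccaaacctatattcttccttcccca

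ISG15, HERC5 and BST2 hold 2 overlapping copies that run on as 1 block, and IFIT1 and IFI27 hold 2 copies set close together. The element was present in 11 of 14 members that were higher, 3 of 7 that were lower and 6 of 10 that were not called. It therefore occurs in members of every outcome. IFI16 and XAF1, the members with the largest rise and the largest fall, had 2 windows each and no match to either motif. The 100 bases before 1 start of each are shown for contrast, in lower case throughout.
IFI16 (chr1:159009807-159009906, + strand): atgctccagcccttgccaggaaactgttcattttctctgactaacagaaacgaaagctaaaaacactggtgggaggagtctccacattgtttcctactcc
XAF1 (chr17:6755946-6756045, + strand): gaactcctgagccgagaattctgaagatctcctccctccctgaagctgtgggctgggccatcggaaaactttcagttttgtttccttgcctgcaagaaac
A match is a description of letters, and a window without one says nothing of how the gene is controlled.

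Of the 38 members, 15 were higher in the arrays labelled CFC1, 8 were lower and 15 did not pass an adjusted p of 0.05 in limma. With the replicate number as a block, which the labels do not say pairs the arrays, 14 were higher and 13 lower: OASL, HERC6, TRIM22, PARP14 and MX2 were added as lower and OAS3 was lost. The share called without the block, 60.5%, lies near the 57.9% of all genes. Higher calls made up 39.5% of members against 29.7% of all genes, and lower calls 21.1% against 28.2%. Large differences were more frequent: 17 members (44.7%) were called with at least a 2-fold difference, 11 higher and 6 lower, against 18.7% of all genes, 9.71% higher and 8.97% lower. The members were chosen with earlier results of these data known, so these shares are a description only. The median absolute difference was 0.68 over the members and 0.39 over all genes, and the signed medians were -0.073 and -0.086. The groups did not overlap in 23 members, against 56.5% of all genes, and these 23 were the called ones. The 38 genes thus did not move as a block. A lower signal in a bulk RNA sample can come from fewer expressing cells or from less RNA per cell, which cannot be told apart.

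**Figure D1:**
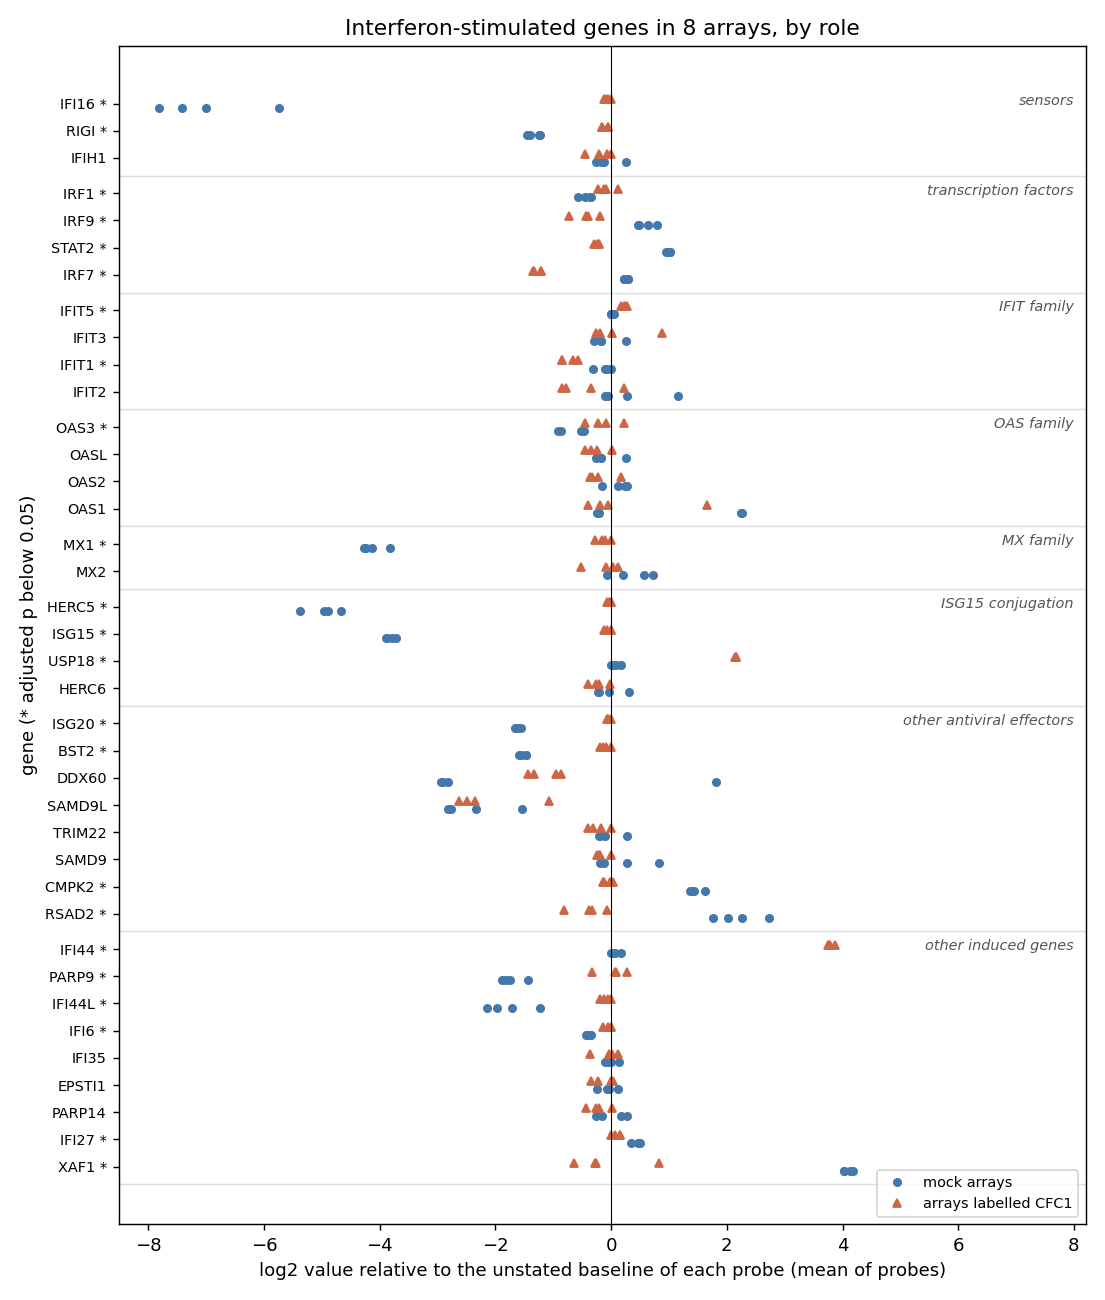
Value of each of the 38 genes in the 8 arrays (x axis, log2 relative to the unstated probe baseline, mean of a gene's probes), grouped by role. Circles are mock arrays and triangles arrays labelled CFC1, and an asterisk marks an adjusted p below 0.05. Mock arrays lie far left of 0 for IFI16, HERC5, MX1 and ISG15 and far right for XAF1, while the arrays labelled CFC1 lie far right for IFI44 and USP18.

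The 3 sensors of nucleic acid gave 2 rises, where 29.7% of all genes were called higher. IFI16, which binds DNA in the nucleus and cytosol, read -7.00, -7.83, -7.41 and -5.75 in mock replicates 1 to 4 and -0.057, -0.094, 0 and -0.12 in the arrays labelled CFC1. Its mock arrays were all far below the baseline and its other arrays all at it, without overlap. The difference of 6.93 (SE 0.41, adjusted p = 2.88e-06), a fitted 122-fold, was the largest of the 38. DDX58, now named RIGI, encodes the RNA sensor RIG-I. Its values were -1.46, -1.24, -1.40 and -1.23 against -0.063, -0.052, -0.16 and -0.16, a rise of 1.22 (SE 0.064). That mean joins 2 probes annotated to the same transcript, 1 at 2.55 and the other at -0.11, so the rise was seen at 1 of them. IFIH1, the RNA sensor MDA5, overlapped between the groups at -0.11 (95% interval -0.44 to 0.23, adjusted p = 0.553).

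Of the 4 transcription factors 3 were called lower and 1 higher, where 28.2% and 29.7% of all genes were. STAT2, a subunit of ISGF3, read 0.95, 0.98, 1.02 and 1.02 in the mock arrays and -0.24, -0.30, -0.21 and -0.22 in the arrays labelled CFC1. Every mock array lay above every other array, and the spread within a group was small, so that the fall of 1.23 had an SE of 0.035 (adjusted p = 5.85e-08). IRF9, the DNA-binding partner of STAT2, read 0.63, 0.46, 0.80 and 0.49 and then -0.73, -0.40, -0.19 and -0.44, a difference of -1.03 (SE 0.12, adjusted p = 0.00018), and both of its probes fell. IRF7, which drives interferon alpha genes, read 0.23, 0.23, 0.30 and 0.29 against -1.21, -1.36, -1.20 and -1.34 (-1.54, SE 0.049, adjusted p = 1.05e-07). For IRF7 the mock arrays sat near the baseline and the arrays labelled CFC1 well below it. After quantile normalization its difference was -2.31. IRF1, a factor that interferon gamma raises, was slightly higher at 0.36 (SE 0.085, adjusted p = 0.00745), from -0.44 ± 0.10 to -0.083 ± 0.14 (mean ± SD, n = 4).

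The IFIT proteins bind foreign RNA at its 5′ end or block translation initiation, and none of the 4 genes was called with a 2-fold difference. The share so called was 18.7% among all genes. IFIT1 read -0.076, -0.11, 0 and -0.31 in the mock arrays and -0.84, -0.85, -0.58 and -0.66 in the arrays labelled CFC1, a fall of 0.61 (SE 0.090, adjusted p = 0.000558). Its groups did not overlap, and the fall was larger after quantile normalization (-0.93). IFIT5 rose by only 0.21 (SE 0.033, adjusted p = 0.000855), called because its arrays spread little, and by 0.44 after quantile normalization. IFIT2 and IFIT3 overlapped between the groups, at -0.76 (95% interval -1.58 to 0.057) and 0.20 (-0.41 to 0.82). In IFIT2 a single mock array, replicate 3 at 1.15, stood above the others, and in IFIT3 a single array labelled CFC1, replicate 2 at 0.87. IFIT2 passed without CFC1 replicate 4 (-0.98, adjusted p = 0.043).

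The OAS enzymes make 2-5A, which activates the ribonuclease RNase L. OAS3 alone was called, and weakly, where 57.9% of all genes were called. It read -0.52, -0.48, -0.86 and -0.92 in the mock arrays and -0.23, -0.46, -0.094 and 0.22 in the arrays labelled CFC1, a difference of 0.56 (SE 0.17, adjusted p = 0.0226). The highest mock array and the lowest array labelled CFC1 lay close together, and its 2 probes went opposite ways, at 1.41 and -0.29. Leaving out mock replicate 3 ended the call (adjusted p = 0.0599), as did leaving out mock replicate 4 (0.0593) or CFC1 replicate 3 (0.0543). Quantile normalization (adjusted p = 0.0833) and a block for the replicate number ended it too (adjusted p = 0.0842). OAS1 did not separate by group: mock replicates 1 and 4 read 2.27 and 2.24 and CFC1 replicate 3 read 1.65, while the other 5 arrays lay between -0.41 and -0.054. OAS2 (mean of 3 probes) stood at -0.31 (95% interval -0.65 to 0.032) and passed without mock replicate 4 (-0.40, adjusted p = 0.0474) or CFC1 replicate 4 (-0.43, 0.0165). OASL, a relative without the enzyme activity, stood at -0.17 (95% interval -0.51 to 0.17).

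MX1 and MX2 encode dynamin-like GTPases that block virus entry to the nucleus or assembly, and lie next to each other. MX1 read -4.14, -4.27, -4.23 and -3.82 in the mock arrays and 0, -0.11, -0.27 and -0.16 in the arrays labelled CFC1. All mock arrays lay far below all others, and the rise of 3.98 had an SE of 0.11 (adjusted p = 5.15e-08), a fitted 15.8-fold. MX2 read 0.20, 0.72, 0.56 and -0.075 against -0.086, 0.028, 0.12 and -0.53, with overlap. Its difference was -0.47 (95% interval -0.96 to 0.028, adjusted p = 0.0988), and it passed without mock replicate 4 (-0.61, adjusted p = 0.0343). With the replicate number as a block MX2 also passed (adjusted p = 0.00693), as it did with the probe of smallest difference (-0.46, adjusted p = 0.0396).

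ISG15 conjugation gave 3 rises of over 2 units among 4 genes. A called rise of at least 1 unit was seen in 9.71% of all genes. ISG15, the ubiquitin-like modifier, read -3.79, -3.89, -3.87 and -3.72 in the mock arrays and -0.12, -0.064, 0 and -0.011 in the arrays labelled CFC1 (3.77, SE 0.051, adjusted p = 1.92e-09). HERC5, the main ligase that attaches it, read -4.96, -5.39, -4.66 and -4.89 against -0.075, -0.036, -0.0052 and 0 (4.95, SE 0.14, adjusted p = 5.85e-08). In both genes the mock arrays were far below the baseline and the arrays labelled CFC1 at it. USP18, the protease that removes ISG15 and damps signalling at IFNAR2, had the other arrangement. Its mock arrays read 0, 0.032, 0.17 and 0.078 and the arrays labelled CFC1 2.16, 2.14, 2.15 and 2.16, a rise of 2.08 (SE 0.043, adjusted p = 1.20e-08) from near the baseline to above it. USP41 is a close copy of USP18, and whether the probe tells them apart was not determined. HERC6, the neighbour of HERC5, stood at -0.18 (95% interval -0.51 to 0.14, adjusted p = 0.301).

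The other antiviral effectors split both ways. ISG20, an RNA exonuclease, rose by 1.57 (SE 0.035, adjusted p = 1.74e-08), from -1.56, -1.61, -1.61 and -1.66 in the mock arrays to -0.076, -0.052, -0.052 and 0. BST2, or tetherin, which holds budding virions at the cell surface, rose by 1.42 (SE 0.053, adjusted p = 2.51e-07), from -1.59, -1.47, -1.47 and -1.55 to -0.15, -0.20, 0 and -0.082, and its 2 probes gave 1.41 and 1.42. Both genes kept a clear gap between groups. RSAD2, the enzyme viperin, which makes a chain-terminating nucleotide, fell. It read 2.74, 1.76, 2.25 and 2.02 in the mock arrays and -0.38, -0.82, -0.33 and -0.073 in the arrays labelled CFC1 (-2.59, SE 0.24, adjusted p = 3.53e-05). CMPK2, a mitochondrial nucleotide kinase encoded next to RSAD2, fell with it, from 1.43, 1.41, 1.37 and 1.62 to 0.032, -0.14, -0.12 and -0.017 (-1.52, SE 0.068, adjusted p = 6.08e-07). In each of these 2 genes 1 probe carried the fall. The RSAD2 probes stood at -4.44 and -0.75, and those of CMPK2 at -2.83 and -0.20. In both, the probe with the smaller difference is annotated to another transcript than the probe that fell.

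The remaining 4 effectors were not called. DDX60, a helicase that assists RIG-I, read -2.81, -2.94, -2.91 and 1.82 in the mock arrays and -1.33, -0.95, -1.43 and -0.87 in the arrays labelled CFC1. Mock replicate 4 stood apart from the other 3 mock arrays, and the difference of 0.56 had a 95% interval of -1.97 to 3.10. Without that array the difference was 1.74 (adjusted p = 8.14e-05). SAMD9L, which restricts translation in infected cells, stood at 0.23 (95% interval -0.76 to 1.23), with all 8 arrays below the baseline and probes at 1.16 and -0.70. Its direction turned to -2.20 after quantile normalization (adjusted p = 0.0191) and to -0.13 without CFC1 replicate 3. SAMD9, its paralog, was at -0.35 (-0.86 to 0.17) and TRIM22, a ligase that restricts retroviral transcription, at -0.16 (-0.48 to 0.15).

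Among the other induced genes, IFI44 and IFI44L, neighbours that respond to type I interferon, both rose. IFI44 read 0.043, 0, 0.061 and 0.18 in the mock arrays and 3.76, 3.79, 3.75 and 3.87 in the arrays labelled CFC1 (3.72, SE 0.049, adjusted p = 1.86e-09). IFI44L read -1.23, -1.97, -1.71 and -2.14 against 0, -0.13, -0.054 and -0.20 (1.67, SE 0.19, adjusted p = 0.000114). The genes thus rose from different sides: mock IFI44 lay at the baseline and mock IFI44L below it. PARP9, an ADP-ribosyltransferase, rose by 1.74 (SE 0.15, adjusted p = 2.45e-05), with -1.75, -1.82, -1.88 and -1.43 against 0.069, 0.27, 0.081 and -0.34. Its adjacent gene DTX3L, a ubiquitin ligase that forms a complex with PARP9, rose by 1.94 (SE 0.49, adjusted p = 0.0104), although arrays of its groups overlapped and a block for the replicate number ended the call (adjusted p = 0.0561). PARP14, of the same gene neighbourhood, stood at -0.22 (95% interval -0.56 to 0.11, adjusted p = 0.235).

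XAF1, which opposes the apoptosis inhibitor XIAP, had the largest fall of the 38. It read 4.02, 4.02, 4.14 and 4.18 in the mock arrays and -0.64, 0.82, -0.26 and -0.28 in the arrays labelled CFC1 (-4.18, SE 0.29, adjusted p = 7.46e-06), and both probes fell, at -4.71 and -3.65. All mock arrays lay above all others, though the arrays labelled CFC1 spread more. IFI6 and IFI27, small mitochondrial proteins, differed little and in opposite directions. IFI6 rose by 0.34 (SE 0.042, adjusted p = 0.000208). IFI27 fell by 0.35 (SE 0.054, adjusted p = 0.000759), and its call was lost after quantile normalization (-0.079, adjusted p = 0.339). IFI35, a partner of NMI, and EPSTI1 overlapped between the groups, at -0.069 (-0.33 to 0.19) and -0.078 (-0.34 to 0.18).

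**Figure D2:**
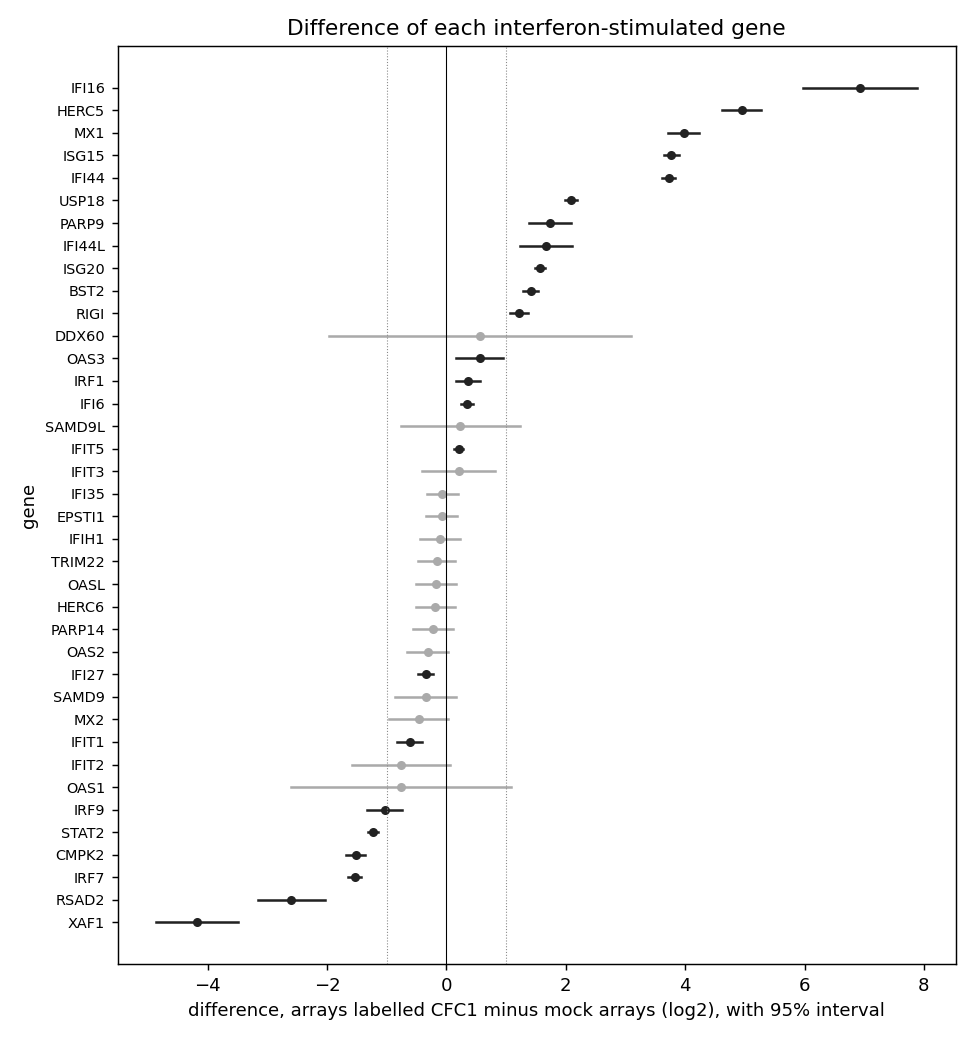
Difference of each of the 38 genes (x axis, arrays labelled CFC1 minus mock arrays, log2) with its 95% interval from limma, sorted by size. Dark bars passed an adjusted p of 0.05 and pale bars did not, and dotted lines mark 2-fold. IFI16 at 6.93 and XAF1 at -4.18 are the extremes, and the 15 pale bars all cross 0.

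The side on which a difference lay was described relative to the baseline. In 12 of the 15 members that were higher the mock mean lay farther from the baseline than the mean of the arrays labelled CFC1. The exceptions were IFI44, USP18 and IFIT5. Among the 8 that were lower the mock mean was the farther in 6, and IRF7 and IFIT1 were the exceptions. Over all called genes the mock mean was the farther in 74.4% of the higher and 71.4% of the lower, so these shares are close to those of the whole array. Because the baseline is not stated, they do not tell which group changed.

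Neighbouring genes were set beside each called member to show whether its difference was shared along the chromosome. The 5 nearest measured genes on each side that are no members were taken from the RefSeq gene order. In all, 6 members exceeded all 10 of their neighbours in absolute size: IFI16, HERC5, ISG15, USP18, BST2 and XAF1. Around IFI16 the neighbours had a median of 0.058, and the largest was CADM3, a cell adhesion gene, at 2.86. Next to ISG15, HES4, a Notch target, and AGRN, an extracellular matrix gene, rose by 3.50 and 3.09, while the median of the 10 was 0.37. XAF1 fell amid neighbours with a median of 0.044, the lowest at -0.98.

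Around other members the neighbours differed in how far they shared its direction. Near MX1, the protease gene BACE2 and the transcript PLAC4 rose by 4.61 and 3.34, although the median of the 10 was -0.095. Near IFI44 and IFI44L the prostaglandin receptor PTGFR rose by 3.86, although the median of the 10 was -0.075 and 4 of them had the members' sign. STAT2 and IRF9 fell among neighbours with medians of -0.58 and -0.65, with 8 of 10 and 8 of 10 called lower and none called higher. IRF7 went against its surroundings, whose median was 1.16 and of which 7 of 10 were called higher. Over the 23 called members the neighbour median had the member's sign in 10. Of the 273 distinct neighbours 136 (49.8%) were called, and 52 (19%) were called with a 2-fold difference, against 57.9% and 18.7% of all genes. The part of gene dosage in any member's difference was not tested.

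**Figure D3:**
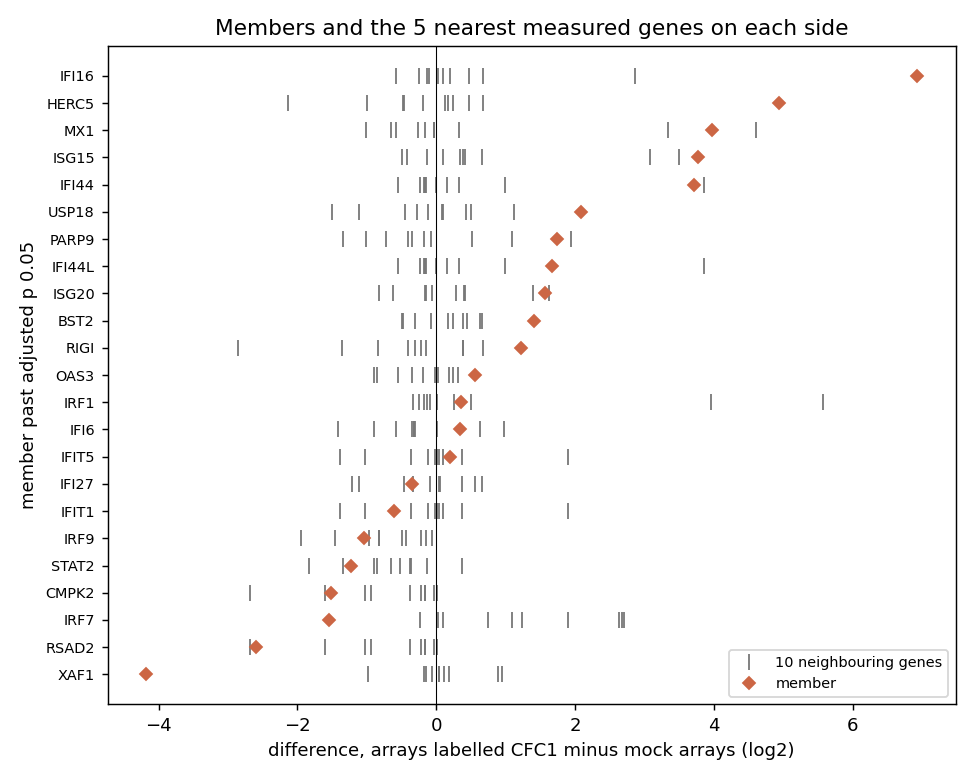
Difference of the 23 called members (diamonds) and of the 5 nearest measured genes on each side (ticks), arrays labelled CFC1 minus mock arrays, log2. The diamonds of IFI16, HERC5, ISG15, USP18, BST2 and XAF1 lie farther from 0 than all ticks of their row, and the ticks of IRF7 lie mostly on the other side of 0.

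Several members not called without the replicate block lay close to the per-array median of the interferon genes. Most of those interferon genes did not follow that median closely themselves. None of the 17 measured ligand genes (interferon alpha, beta, gamma, lambda, epsilon, kappa and omega) was called in limma, against 57.9% of all genes. None had an unadjusted p below 0.05, and their differences ran from -0.46 to 1.13. With the replicate number as a block, 3 were called lower. Leaving out CFC1 replicate 1 gave 1 higher call, and leaving out mock replicate 3 gave 1 lower call. The median over the ligand genes read -0.090, -0.19, -0.22 and 0.22 in mock replicates 1 to 4 and -0.17, -0.38, -0.29 and -0.025 in the arrays labelled CFC1, with mock replicate 4 the only array above 0. TRIM22 followed that median within 0.046 in every array, HERC6 within 0.082 and OASL within 0.089. EPSTI1 and IFIH1 stayed within 0.19 and 0.23. Within a tolerance of 0.1 this held for 3 of the 38 members and 3 of the 17 ligands themselves, and for 868 of all genes (4.03%). Within 0.25 it held for 5 members, 6 ligands and 8.04% of all genes. The comparison was chosen after the values were seen, and it is a description without a test. The table gives no background flag, so whether these probes lay at background was not tested.

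**Figure D4:**
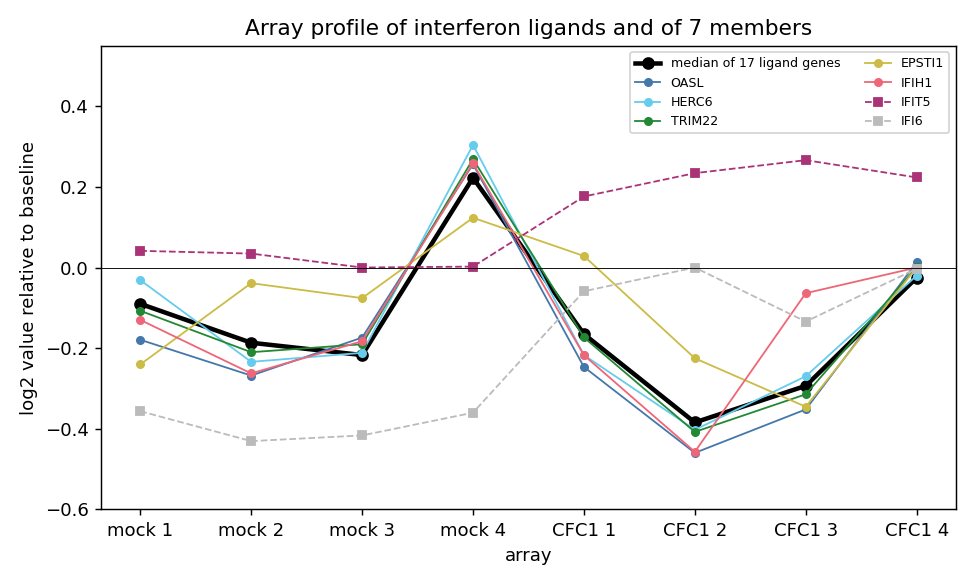
Values in the 8 arrays (x axis) of the median of 17 interferon ligand genes (thick black line) and of 7 members (log2 relative to the probe baseline, y axis). TRIM22, HERC6 and OASL run along the black line, which is at 0.22 in mock replicate 4 and -0.38 in CFC1 replicate 2, while IFIT5 and IFI6 (dashed), both called, do not.

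Upstream of the members, the receptor chains of type I interferon were not called. IFNAR1 stood at 0.030 (95% interval -0.14 to 0.20) and IFNAR2 at -0.0081 (-0.15 to 0.13), with directions that turn under other settings. Of the 6 receptor genes, 2 rose by small amounts: IFNGR1, of the gamma receptor, by 0.20 (SE 0.046) and IL10RB, shared by the lambda receptor, by 0.21 (SE 0.049). That was 33.3% called, all of them higher, against 57.9% called and 29.7% called higher among all genes. The call of IFNGR1 was lost with median centring (0.25, adjusted p = 0.054). The kinases JAK1 and TYK2 were lower at -0.43 (SE 0.056, adjusted p = 0.000249) and -0.38 (SE 0.063, adjusted p = 0.0012). JAK2, which serves the gamma receptor, was higher by 0.72 (SE 0.064, adjusted p = 3.05e-05). No gene of these lists was called with a 2-fold difference, against 18.7% of all genes.

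Of 20 genes of nucleic acid sensing, 8 rose and 3 fell (median 0.16), and the share called, 55%, was slightly below the 57.9% of all genes. The adaptor MYD88, which relays Toll-like receptor signals, rose by 5.67 (SE 0.10), from -5.86, -5.85, -6.01 and -5.57 in the mock arrays to 0, -0.20, -0.17 and -0.25, with a wide gap between groups. TREX1, a nuclease that clears cytosolic DNA, rose by 2.14, DHX58, the RIG-I relative LGP2, by 1.51 and TLR3, a receptor for double-stranded RNA, by 1.39, with adjusted p-values of 4.60e-09, 8.07e-05 and 3.56e-05. Among 9 negative regulators 3 rose and 3 fell (66.7% called against 57.9% of all genes), and 1 was called lower after quantile normalization. SOCS1, an inhibitor of JAK kinases, changed by -1.16 (SE 0.056, adjusted p = 9.39e-07), and the phosphatase genes PTPN1 and PTPN2 rose by 0.63 and 0.54. PIAS4, an inhibitor of STAT activity, stood at -0.40 (adjusted p = 0.0108) and lost its call after quantile normalization (adjusted p = 0.0691) and with the median of its probes (adjusted p = 0.094).

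Further targets of type I interferon that are no members also moved both ways. Of 41 measured, 21 rose and 8 fell, and 12 were not called (median 0.30), and 5 were called lower with median centring. The shares were 70.7% called, 51.2% higher, 19.5% lower and 43.9% with a 2-fold difference, against 57.9%, 29.7%, 28.2% and 18.7% of all genes. Like all lists of the pathway, this one was written with earlier results of these data known, so its shares are a description only. The 4 largest were NMI, a partner of STAT proteins, at 5.79 (SE 0.10), SP110, a nuclear body protein, at 5.55 (SE 0.094), PARP12, an ADP-ribosyltransferase, at 5.01 (SE 0.11), and TDRD7, a Tudor-domain protein that restricts autophagy, at 4.14 (SE 0.066). Their adjusted p-values were 1.88e-08 or less. As in most members that rose, the mock means of these genes lay below the baseline, from -5.84 to -4.15, and the other means at it. Of the 8 that fell the largest, named after their values were seen, were the cytidine deaminase genes APOBEC3G and APOBEC3F at -3.62 and -3.07. Of 19 targets of interferon gamma 7 rose and 0 fell in limma, and 12 were not called. The share called was thus 36.8%, below the 57.9% of all genes, while 29.7% of all genes were called higher and 28.2% lower. IFI30, a lysosomal thiol reductase, rose by 3.52, HLA-DMA, which loads MHC class II, by 2.22, the adhesion gene ICAM1 by 2.20 and the GTPase gene GBP2 by 1.90. At an unadjusted p of 0.05 none fell either, and 1 fell without mock replicate 1.

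**Figure D5:**
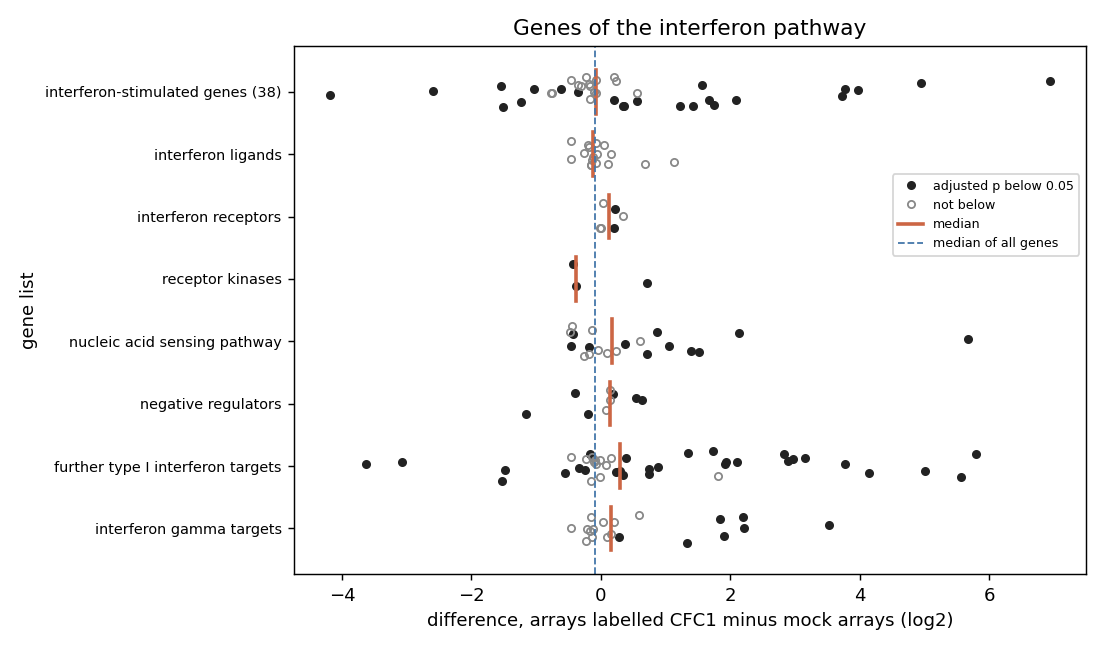
Difference of each gene (x axis, arrays labelled CFC1 minus mock arrays, log2) in the 38 interferon-stimulated genes and in 7 further lists of the pathway. Filled points passed an adjusted p of 0.05, open points did not, orange bars are list medians and the dashed line is the median of all genes (-0.086). Ligands lie between -0.46 and 1.13, while the 38 genes spread from -4.18 to 6.93.

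Marker genes of other cells were read in the same way. Because values carry no level, they cannot show whether a marker is expressed, and the label of a neuroblastoma line could not be checked by presence. Over all genes 29.7% were called higher and 28.2% lower. Of 9 neuroblastoma markers 1 was higher in the second group (11.1%) and 6 were lower (66.7%). Of 10 immune markers, cells in which these genes are often high, 1 was higher (10%) and 2 lower (20%), and the mean over the list lay between -0.29 and 0.042 in the mock arrays and between -0.55 and -0.00095 in the others. Of 10 fibroblast and mural markers 1 was higher (10%) and 8 lower (80%), with array means from 1.04 to 1.11 in mock and from -0.18 to -0.11 in the others. Of 8 epithelial markers 2 were higher (25%) and 3 lower (37.5%), and of 8 endothelial markers 1 was higher (12.5%) and 2 lower (25%). The part of other cells in the members' differences was not tested.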

How the data were processed

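The labels' protocols describe total RNA labelled with Cyanine3 and hybridised to one-color Agilent arrays. The deposited table holds signed values on a log scale, read as log2, relative to a probe baseline. The base of the logarithm, feature extraction, background treatment and scaling are not stated there. Array medians ran from -0.145 to 0.139, and slide or scan was not used here. The number of arrays limits the precision.

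Of 50739 rows, 140 control spots were left out, and 31993 of the other 50599 probes had 1 gene symbol. The remaining 18606, without a single symbol, were not assigned to a gene. Symbols were updated through the RefSeq table of GRCh38.p14: 28419 probes by accession, 3072 by symbol and 480 by synonym, with 22 kept. A gene took the mean of its probes, because centred values give no level by which to choose 1. The groups were compared in limma 3.58.1 (lmFit and eBayes, no trend, no block, R 4.3.3), with two-sided Benjamini-Hochberg p-values over all 21524 genes and a threshold of 0.05. The script was tested on simulated data.

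Members and lists were chosen with earlier results of these data known. All 38 members are reported. From each further list the text names up to 4 called genes with the largest difference, and IFNAR1, IFNAR2, JAK1 and TYK2 in any case. APOBEC3G and APOBEC3F were named in addition, after their values were seen. Neighbouring genes are named only beside a member, and CFC1 as the check of the labels. Of the genes in the pathway and marker lists, 10 were not analysed here. Alternatives were a block for the replicate number, quantile normalization, median centring, array weights, a prior trend, unmoderated variances, the probe with the smallest difference, the median of probes, natural logarithms and each array left out in turn.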

Additional observations from a re-analysis of the deposited data

Results flagged for a closer look

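In DDX60, mock replicate 4 stood at 1.82, while the other 3 mock arrays lay between -2.94 and -2.81. Its gap to the nearest array took 0.974 of the group's range, above Dixon's 95% critical value for 4 samples. This was the only such array among 78 groups examined, for 38 members and CFC1, and about 1 in 20 groups would be picked out by chance.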

How the results depend on the processing

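All 38 members kept their direction and their side of the threshold with median centring, array weights, a prior trend, unmoderated variances, the median of probes and natural logarithms, and when mock replicate 1, mock replicate 2 or CFC1 replicate 1 was left out. Members called higher numbered 13 to 15 over all alternatives, and those called lower 7 to 10, except 13 with the replicate number as a block, where OASL, HERC6, TRIM22, PARP14 and MX2 were gained and OAS3 was lost. The block changed no other member's call. The numbers were not taken to pair the arrays, because the labels do not say that they do. Deviations of same-numbered arrays correlated at 0.138, 0.199, 0.0741 and 0.190, and each array correlated best with its own number. Arrays of different number correlated at -0.140 to 0.0683. Whether the numbers mark a shared batch was not tested, and the main fit takes no account of one. Members called with a 2-fold difference numbered 13 to 18, and 16 to 18 with 1 array left out.

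Reversed directions after quantile normalization were DDX60 (-0.67), SAMD9L (-2.20), IFI35 (0.0054) and EPSTI1 (0.021), none called before. With the probe of smallest difference they were RIGI (-0.11), OAS3 (-0.29) and SAMD9L (-0.70), none called there. That setting also lost the calls of RSAD2 and CMPK2 and added MX2 as lower (-0.46, adjusted p = 0.0396 in limma). With 1 array left out, the ranges of results that changed sign were IFIH1 -0.17 to 0.0072, IFIT3 -0.050 to 0.33, SAMD9L -0.13 to 0.50, IFI35 -0.13 to 0.031, IFNAR1 -0.018 to 0.098 and IFNAR2 -0.037 to 0.035. IFNAR2 also turned with median centring (0.034), the probe of smallest difference (0.050) and the median of probes (0.089).

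The call of the CFC1 difference was lost with the block (-0.80, adjusted p = 0.0761), quantile normalization (-0.74, 0.0678), median centring (-0.75, 0.0582), unmoderated variances (-0.80, 0.0662) and the fit over all probes (-0.80, 0.0546), in limma. Leaving out single arrays gave -0.94 to -0.57 for CFC1, and the call ended without either of mock replicates 1 and 2 and without any of CFC1 replicates 2, 3 and 4. In the lists, 3 ligands were lower with the block, 1 receptor higher and 5 further type I targets lower with median centring, 1 sensing gene lower with the probe of smallest difference, and 1 negative regulator lower after quantile normalization. With 1 array left out, called ligands ran from 0 to 1 in each direction, and interferon gamma targets called lower from 0 to 1. The cause of these changes was not tested. If the logarithm were natural, all differences would be larger. Without background flags, folds against a dim group are fitted values.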
